A study of Mus musculus with 62 samples.

Results

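The genes of cholesterol and fatty acid synthesis were read cell by cell in KPC1199-EGFP. This is a pancreatic cancer line from mice of C57BL/6 background, made to express EGFP. The set was 31 genes, taken by name: 18 enzymes of sterol synthesis, 9 enzymes of fatty acid synthesis, and 4 genes that regulate the pathway or carry sterol. It was chosen with earlier results of these data known. All 31 had a row among the 19112 gene rows of the deposited table. The cells came from 1 untreated adherent culture at passage 9, grown in medium with fetal bovine serum. They were trypsinised, captured and amplified on a Fluidigm C1 chip, 1 cell to a library. In the wider study they serve as the cultured control for tumours grown from this line in mice, matched to the implanted cells by passage. Of the 62 libraries, the 50 in which ERCC spike-ins (synthetic RNAs added to each reaction) took under 20% of counts were used, with the other 12 described apart. Because there was 1 culture, cells were not replicates of a condition. No group comparison was possible and no p-value was computed, so every spread and correlation below describes the cells of this culture.

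Cells make cholesterol from acetyl-CoA through mevalonate, the isoprenoid farnesyl diphosphate, squalene and lanosterol. Fatty acids are built from the same acetyl-CoA, then elongated and desaturated. Both branches are controlled by the SREBP transcription factors, which Srebf1 and Srebf2 encode. SREBPs are held in the endoplasmic reticulum by INSIG proteins when sterols are plentiful and are released to the nucleus when sterols fall. SREBP-2 is known mainly for sterol genes, and the SREBP-1c form for fatty acid genes. NF-Y, which binds CCAAT, and Sp1, which binds GC boxes, are known partners of SREBPs at promoters.

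The 50 libraries held 2153895 to 12868806 gene counts and 6832 to 11068 detected genes, with spike-in shares of 0.19% to 1.83%. The highest correlation between any pair of them was 0.841, and none were identical. Of 6 epithelial markers (Krt8, Krt18, Krt19, Krt7, Cdh1 and Epcam), 5 were detected in 50% or more of the 50 libraries. Their summed level ran from 3599 to 24472 CPM (counts scaled to the same total of gene counts in every library). Immune markers summed to at most 3.61 CPM and fibroblast markers to at most 7.03 CPM, and the endothelial markers Pecam1, Cdh5 and Kdr were all at 0. Detection in 50% or more of the libraries was found for 1 of 6 fibroblast markers and for 48.6% of all gene rows. No immune, endothelial, hepatocyte or adipocyte marker reached it. Hepatocyte markers reached 138 CPM in the highest library, with Alb at 0 in all 50, and adipocyte markers 84.01 CPM, with Fabp4 at 0. The median library held 0 of both. Of the 4 adipocyte markers listed, Adipoq and Plin1 had no row, so the adipocyte sum was that of Cidec alone.

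All 18 sterol enzymes and all 9 fatty acid enzymes were detected in 50% or more of the 50 libraries. Of all gene rows, 48.6% reached that mark. Per cell, between 13 and 18 sterol enzymes were above 0, with a median of 18, and the median for fatty acid enzymes was 8 of 9. Together the sterol enzymes took 0.133% of gene counts in the lowest cell (library 31), 0.556% in the median cell and 1.19% in the highest (library 16). The fatty acid enzymes took 0.0277% in the lowest cell (library 1), 0.133% in the median cell and 0.271% in the highest (library 11). The highest cell thus stood 8.89-fold above the lowest for the sterol enzymes and 9.79-fold above it for the fatty acid enzymes. The sterol sum exceeded the fatty acid sum in all but 3 cells, and the median ratio was 4.35. These sums are of counts not scaled by length.

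**Figure D1:**
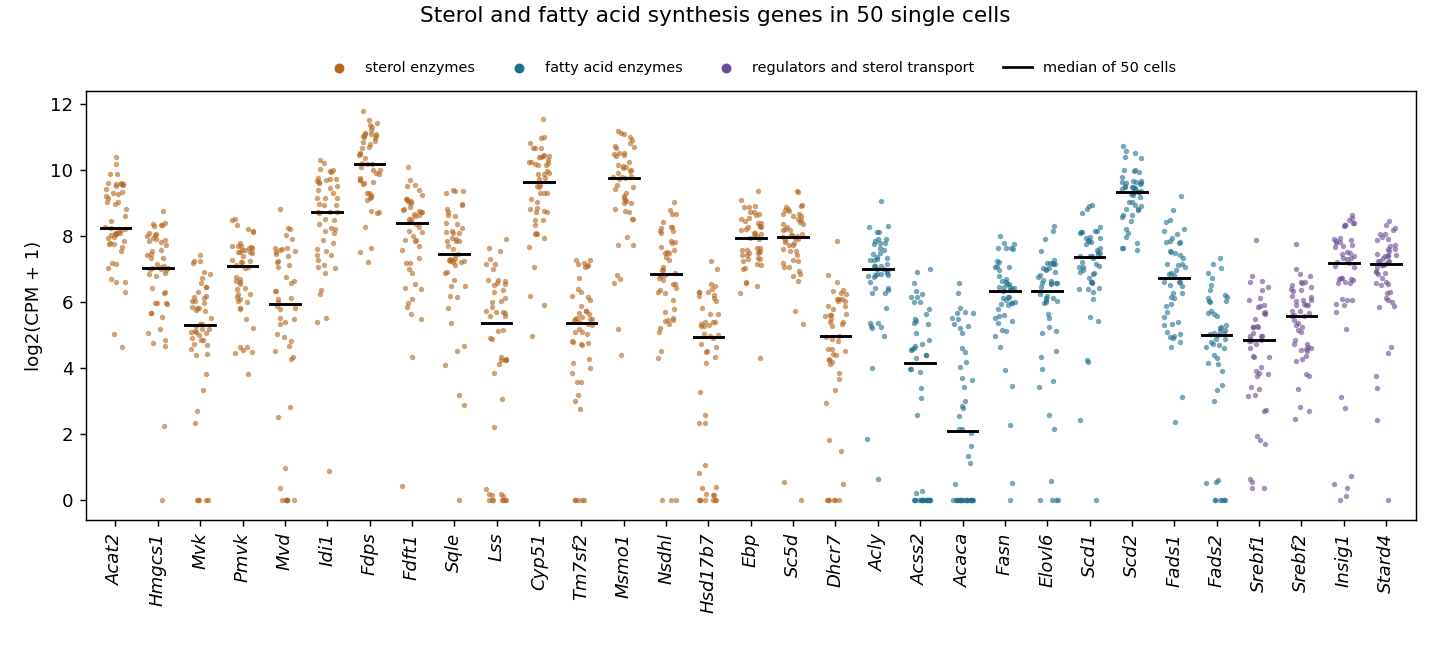
Levels of the 31 genes as log2(CPM + 1) on the y axis, 1 point per cell (n = 50), with black bars at the median. Fdps, Msmo1, Cyp51 and Scd2 sit highest, while Acss2, Acaca, Hsd17b7 and Lss have many cells at or near 0.

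The mevalonate arm carries carbon from acetyl-CoA to farnesyl diphosphate. Fdps, which makes farnesyl diphosphate, stood at 148 CPM in the lowest of the 50 cells, 1152 in the median and 3576 in the highest. It was the most abundant of the 31 genes, and no cell lacked it. Idi1, the isopentenyl diphosphate isomerase, ran from 0.844 through a median of 423 to 1262 CPM. Acat2, the cytosolic acetoacetyl-CoA thiolase that opens the pathway, ran from 24.3 through 302 to 1344 CPM. Hmgcs1, the HMG-CoA synthase, ran from 0 through 131 to 438 CPM, with 1 cell at 0. The 3 genes that convert mevalonate to isopentenyl diphosphate were lower, except Pmvk. The kinases Mvk and Pmvk had medians of 38.7 and 136 CPM, and the decarboxylase Mvd had a median of 60.9 CPM. Mvk was at 0 in 5 cells and Mvd in 7, while Pmvk was found in all 50.

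Fdft1 joins farnesyl units into squalene, Sqle oxidises squalene, and Lss closes the rings to give lanosterol. Fdft1 ran from 0.354 through a median of 336 to 1089 CPM, and Sqle from 0 through 174 to 671 CPM. Lss was the lowest of the 3, at 0 in 7 cells, with a median of 40.97 and a highest value of 239 CPM. Among the enzymes after lanosterol, the demethylase Cyp51 ran from 30.8 through 799 to 3000 CPM, and the sterol methyl oxidase Msmo1 from 20.4 through 870 to 2339 CPM. Both were found in every cell. The sterol isomerase Ebp ran from 18.7 through 247 to 664 CPM and the desaturase Sc5d from 0 through 253 to 657 CPM. Nsdhl, which acts with Msmo1 in removing methyl groups, had a median of 114 CPM. The reductases Tm7sf2 and Dhcr7 and the dehydrogenase Hsd17b7 had medians of 40.6, 30.4 and 29.8 CPM and were at 0 in 5, 6 and 7 cells.

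In the fatty acid branch, Acly and Acss2 supply acetyl-CoA, from citrate and from acetate. Acly was above 0 in all 50 cells, from 0.579 through a median of 127 to 532 CPM, whereas Acss2 was at 0 in 17 cells, with a median of 16.9 and a highest value of 127 CPM. Acaca, the carboxylase that commits acetyl-CoA to fatty acids, was at 0 in 20 cells, with a median of 3.28 and a highest value of 95.02 CPM. Fasn, the fatty acid synthase, ran from 0 through 80.9 to 259 CPM and was at 0 in 1 cell. Elovl6, which lengthens the products of Fasn, ran from 0 through 81.0 to 315 CPM and was at 0 in 4 cells.

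Among the desaturases, levels ranged widely. Scd2 ran from 191 through 652 to 1687 CPM and was the only one of the 9 enzymes above 100 CPM in every cell. Scd1 had a median of 164 CPM and a highest value of 494, and 1 cell held less than 1 CPM. Both introduce the double bond of monounsaturated fatty acids. Fads1 and Fads2, desaturases of polyunsaturated fatty acids, had medians of 106 and 31.3 CPM, and Fads2 was at 0 in 6 cells.

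Scaled by transcript length, sterol enzymes spanned medians of 10.7 (Hsd17b7) to 1354 (Fdps) length-scaled CPM, with a median gene at 96.2. Msmo1 at 672 and Cyp51 at 335 followed Fdps. Fatty acid enzymes spanned 0.562 (Acaca) to 203 (Scd2) on this scale, with a median gene at 22.1. Scd1, Fads1 and Acly lay close together at 55.1, 50.99 and 47.2, and Fasn, one of the longest transcripts of the set, at 13.2. Ranges over cells of such neighbours overlapped. Of the regulators, Insig1 stood at 86.7, Stard4 at 45.4, Srebf2 at 16.7 and Srebf1 at 10.7. Coverage along the long transcripts was not tested.

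Variability was read as the squared coefficient of variation relative to the trend of all genes at the same mean level. A value at least 2-fold above that trend was found for 6.69% of the 12012 genes tested, and for 8 of 18 sterol enzymes and 2 of 9 fatty acid enzymes. Fdps was 4.62-fold above the trend, Cyp51 4.56-fold and Msmo1 4.29-fold. Acat2, Idi1, Fdft1, Sqle and Nsdhl were the other 5, between 2.02-fold and 3.23-fold. Scd2 at 2.34-fold and Fads1 at 2.30-fold were the 2 fatty acid enzymes. With all 62 libraries the counts fell to 2 sterol and 0 fatty acid enzymes, and the share of all genes was not read in that setting. The median log2 residual was 0.72 for sterol enzymes, 0.36 for fatty acid enzymes, 0.36 for regulators and -0.01 for all tested genes. Ebp, an abundant sterol gene, was 1.38-fold above the trend. Measures of spread that do not use the trend gave another order. The middle 50% of cells spanned 1.78-fold for Scd2, 2.04-fold for Ebp, 3.06-fold for Fdps and 4.06-fold for Idi1. The SD over cells (SD, n = 50) was 0.77 for Scd2, 0.88 for Ebp, 1.08 for Fdps and 1.64 for Idi1 on the log2(CPM + 1) scale.

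**Figure D2:**
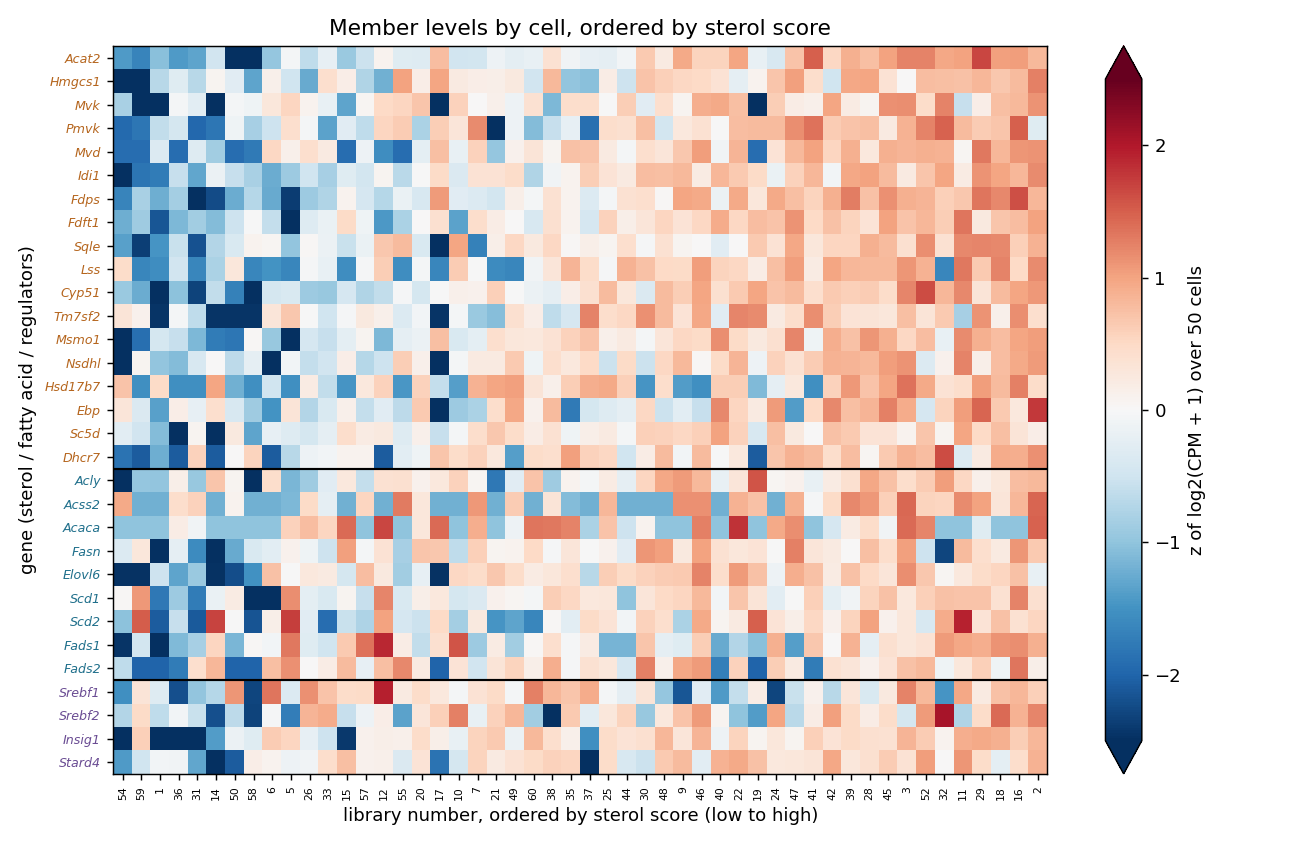
Level of each of the 31 genes (rows, z of log2(CPM + 1)) in each of 50 cells (columns, library numbers), ordered by the sterol score from low to high. Most sterol rows pass from blue to red across the columns, while Hsd17b7, Acss2, Acaca and Srebf1 show cells of either colour throughout.

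Sterol enzymes varied together from cell to cell, with a higher median correlation than fatty acid enzymes had. Over the 153 pairs of sterol enzymes the median Pearson r was 0.43, no pair was below 0, and 49 pairs reached 0.5. Over the 36 pairs of fatty acid enzymes the median was 0.25, and 1 pair reached 0.5. Between the branches the median over 162 pairs was 0.30, with 23 pairs at 0.5 or more. At the median, the correlation among fatty acid enzymes was thus no higher than that between the branches. Over all pairs of the tested genes the median was 0.02, and 0.152% of pairs reached 0.5. Cells share library preparation and chip, pairs within a list share genes, and the difference between branches was not tested. The sets also differed in level. The median gene had a mean log2(CPM + 1) of 6.97 for sterol enzymes, 5.99 for fatty acid enzymes and 3.14 for all tested genes. The part of level in the differences between branches, or from all pairs, was not tested.

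Within the sterol branch, pairs inside the mevalonate arm had the highest median, 0.57 over 21 pairs, against 0.40 over the 28 pairs after lanosterol. The 2 leading pairs crossed the arms, Fdps with Msmo1 at r = 0.83 and Fdft1 with Msmo1 at 0.81. The third, Hmgcs1 with Idi1 at 0.78, lay inside the mevalonate arm, and Acat2 with Cyp51, also at 0.78, crossed them again. In the fatty acid branch the highest pair was Scd1 with Scd2 at 0.58. Scd1 and Scd2 are close paralogs, and their estimated counts were not whole numbers in 92% and 96% of the libraries. Whether reads were shared between their rows was not tested. Counts were likewise not whole in 86% to 98% of libraries for Acat2, Idi1, Sc5d and Elovl6. Fads1 with Fads2 had 0.48, Fasn with Elovl6 0.45 and Acaca with Fasn 0.37.

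**Figure D3:**
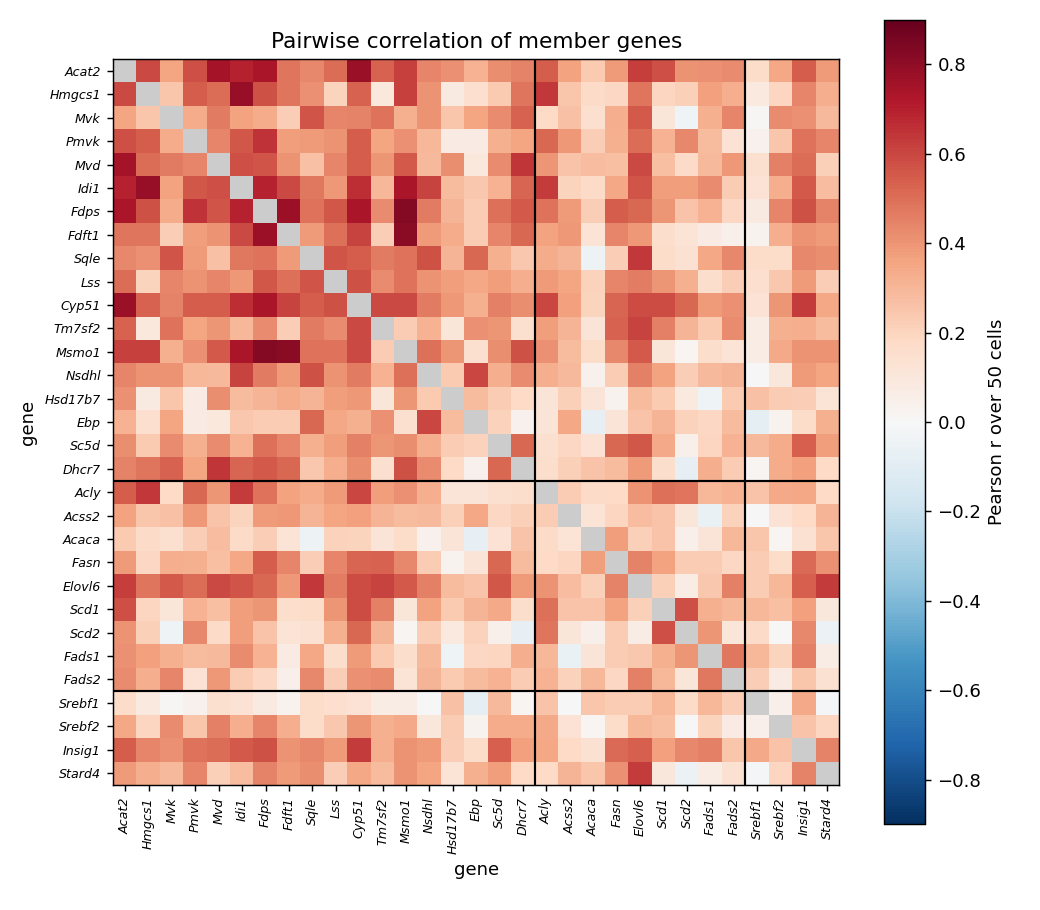
Pearson r over 50 cells for every pair of the 31 genes, with black lines between sterol enzymes, fatty acid enzymes and regulators, and grey on the diagonal. The upper left block holds the deepest red, led by Fdps with Msmo1 at 0.83, while the row of Srebf1 is pale across most of the sterol block.

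A score was given to each branch in each cell, the mean z value of its enzymes minus that of all genes of like mean level, and each enzyme was then compared with the score of the others. An r of at least 0.5 with the sterol score was found for 0.333% of all tested genes and for 13 of 18 sterol enzymes. Fdps and Cyp51 led, both at r = 0.84 (n = 50 cells), followed by Acat2 at 0.82, Idi1 at 0.78 and Msmo1 at 0.76. Fdft1, Mvd, Hmgcs1, Pmvk, Sqle, Lss, Dhcr7 and Nsdhl lay between 0.56 and 0.68. The 5 below the mark were Sc5d at 0.495, Tm7sf2 at 0.47, Mvk at 0.46, Ebp at 0.35 and Hsd17b7 at 0.35. Of these 5, Ebp was above 0 in all 50 cells and Sc5d in 49, with medians of 247 and 253 CPM. The medians of Tm7sf2, Mvk and Hsd17b7 were 40.6, 38.7 and 29.8 CPM. Across the 18 enzymes, r was higher for genes of higher mean level (rho = 0.74 across genes, which are not independent), and the part of counting depth in this order was not tested. For the 9 fatty acid enzymes and their own score, the same rho was 0.92. The median tested gene was lower in level than the median enzyme of either branch (mean log2(CPM + 1) of 3.14). The shares of all tested genes reaching 0.5 with a score were not limited to genes of like level. Over all 62 libraries 3 of the 18 reached 0.5, and the share of all tested genes was not read there.

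The promoters of the set were also searched for known motifs. The windows searched ran from 250 bases before to 50 after each RefSeq start site (build GRCm38.p6), on both strands, and 15 of 18 sterol enzymes, 6 of 9 fatty acid enzymes and 3 of 4 regulators had one. Fdps, Fdft1, Sqle, Scd1, Scd2, Fads1 and Stard4 had none. The classical sterol regulatory element, searched without a mismatch, was in 0 of these windows and in 0.0913% of all 32851. The shorter form TCACNCCAC, which it contains, was in 1 member, Hmgcs1, in 1.44% of all genes with a window and in 1.24% of all windows. The NF-Y motif CCAAT was found for 14 of 15 sterol enzymes, all but Acat2, for 3 of 6 fatty acid enzymes (Acly, Acss2 and Fasn) and for 41.1% of all genes with a window. The GC box GGGCGG was found for 14 of 15 sterol enzymes, all but Pmvk, for 3 of 6 fatty acid enzymes (Acly, Acss2 and Fads2) and for 38.2% of all genes. The 160 bases before the start site are shown 5′ to 3′ for Hmgcs1, the member with TCACNCCAC, for Cyp51, Acat2 and Idi1, the sterol enzymes with a window and the highest r with the score, and for Elovl6, the fatty acid enzyme with the highest r with it. Capitals mark TCACNCCAC, CCAAT and GGGCGG on either strand.
Hmgcs1, chr13:119690191-119690350, + strand: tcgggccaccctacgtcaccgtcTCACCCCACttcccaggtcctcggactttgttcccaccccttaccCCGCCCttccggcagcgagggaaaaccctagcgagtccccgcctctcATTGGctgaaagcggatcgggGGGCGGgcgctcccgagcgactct
Cyp51, chr5:4104698-4104857, - strand: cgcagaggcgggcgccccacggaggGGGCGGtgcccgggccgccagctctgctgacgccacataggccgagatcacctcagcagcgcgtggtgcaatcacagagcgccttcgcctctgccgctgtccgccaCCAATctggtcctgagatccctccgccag
Acat2, chr17:12960726-12960885, - strand: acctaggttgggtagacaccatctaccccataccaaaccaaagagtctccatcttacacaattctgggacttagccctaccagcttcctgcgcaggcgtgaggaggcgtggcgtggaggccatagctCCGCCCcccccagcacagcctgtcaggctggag
Idi1, chr13:8885446-8885605, + strand: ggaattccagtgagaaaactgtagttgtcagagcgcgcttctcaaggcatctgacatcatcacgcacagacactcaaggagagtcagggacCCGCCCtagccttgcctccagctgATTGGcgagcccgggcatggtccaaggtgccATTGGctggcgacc
Elovl6, chr3:129532226-129532385, + strand: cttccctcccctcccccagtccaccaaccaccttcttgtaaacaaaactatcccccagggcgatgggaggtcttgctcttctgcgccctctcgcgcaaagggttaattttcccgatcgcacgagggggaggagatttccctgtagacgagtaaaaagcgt
The stretch of Hmgcs1 held 1 TCACNCCAC, 1 CCAAT and 2 GGGCGG, that of Idi1 2 CCAAT and 1 GGGCGG, and that of Elovl6 none of the 3. A match is a match of letters only. The shares over all genes were not limited to genes detected in these cells, and whether motifs go with r was not tested.

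Against the sterol score, 2 of 9 fatty acid enzymes reached r = 0.5. They were Elovl6 at 0.67 and Acly at 0.58, the enzyme that makes the acetyl-CoA used by both branches. Fasn had 0.48, Scd1 0.47, Fads1 and Acss2 0.42, Scd2 0.39, Fads2 0.34 and Acaca 0.18. Acss2 and Acaca were at 0 in many cells, and a weak r in such sparse counts is no finding. Against the fatty acid score, 3 of 9 fatty acid enzymes reached 0.5 (Scd1 at 0.62, Acly at 0.58 and Scd2 at 0.54), as did 7 of 18 sterol enzymes and 0.142% of all tested genes. The sterol enzymes were Cyp51 at 0.79, Acat2 at 0.74, Fdps, Pmvk, Idi1, Tm7sf2 and Hmgcs1. Elovl6 had 0.36 with its own branch, against 0.67 with the sterol enzymes. An r higher with the sterol score was found for 3 of 9 fatty acid enzymes, the others being Acss2 (0.42 against 0.21) and Fasn (0.48 against 0.39). The same held for 17 of 18 sterol enzymes and for 6975 of the 12012 tested genes. The scores rest on 9 and 18 enzymes, so these values are not of like measures. The fatty acid score was also built from the 5 enzymes whose counts were nearly all whole numbers, which leaves out Scd1, Scd2, Elovl6 and Fads2. With it, 0 of those 5 and 2 of the 11 such sterol enzymes reached 0.5. Of the enzymes reaching 0.5 with the full score, only Acly was among the 5, and only Pmvk, Tm7sf2 and Hmgcs1 were among the 11. With the sterol score built from those 11, 9 of them reached 0.5. With the full sterol score, all of the 11 but Mvk, Tm7sf2 and Ebp did. Over all 62 libraries, 1 fatty acid enzyme reached 0.5 with the sterol score, and 0 enzymes of either branch with the fatty acid score. Shares of all tested genes were again not read there.

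**Figure D4:**
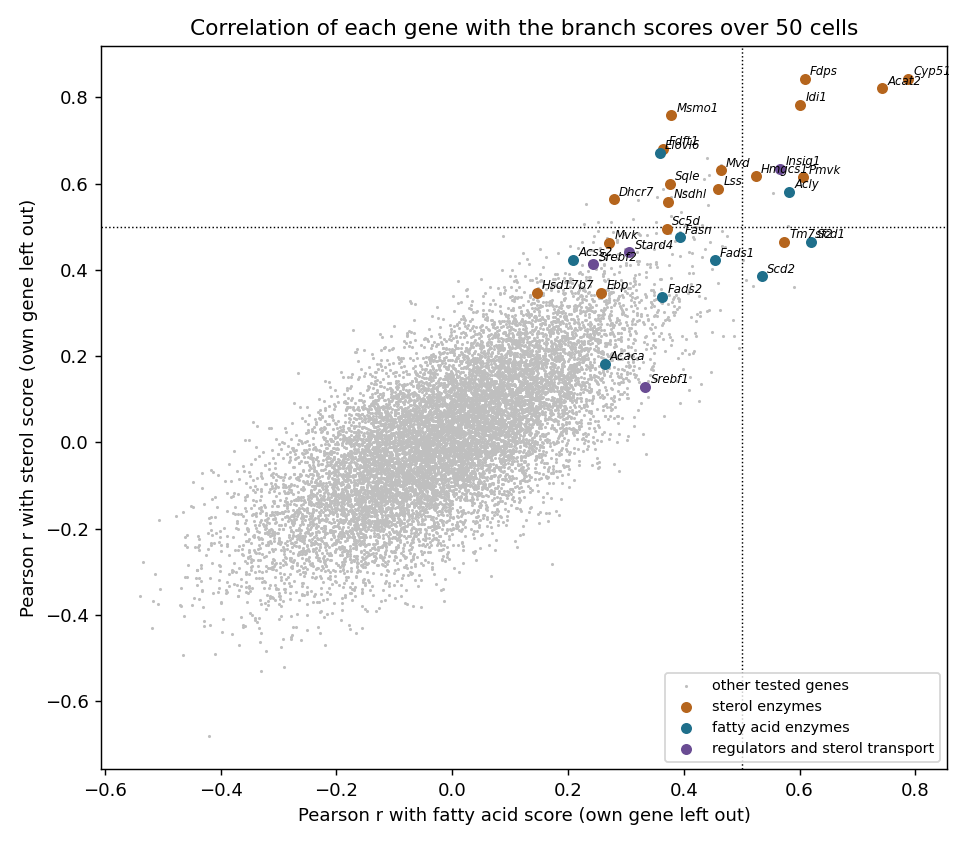
Pearson r of each gene over 50 cells with the fatty acid score (x axis) and the sterol score (y axis), each gene left out of its own score, with dotted lines at 0.5 and other tested genes in grey. Above the horizontal line lie 13 of 18 sterol enzymes, and also Elovl6, Acly and Insig1. Scd1 and Scd2 lie to the right of the vertical line but below the horizontal one, and Acaca and Srebf1 lie within the grey cloud.

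The regulators did not form a set of their own. Insig1, which retains SREBPs in the endoplasmic reticulum and is itself a known SREBP target, ran from 0 through a median of 146 to 401 CPM. It had r = 0.63 with the sterol score and 0.57 with the fatty acid score, and was the only 1 of the 4 at 0.5 or more with either. Stard4, a soluble sterol carrier, ran from 0 through 140 to 352 CPM and had r = 0.44 and 0.31 with the same scores. Srebf2 ran from 4.57 through 47.5 to 216 CPM, and Srebf1 from 0.289 through 27.9 to 233 CPM. Srebf2 had r = 0.41 with the sterol score and 0.24 with the fatty acid score. For Srebf1 the order was the opposite, 0.13 with the sterol and 0.33 with the fatty acid score. The transcripts of the 2 factors had r = 0.05 with each other. SREBP activity is set largely by cleavage of the protein, which mRNA counts do not read.

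Across cells the sterol score and the fatty acid score had r = 0.72 and rho = 0.70 (n = 50). The log2 sums of the branches, which weight each enzyme by its counts, had r = 0.56. The r was 0.71 without the 2 cells farthest from the median sterol score (libraries 54 and 59) and 0.73 within 8 blocks of label numbers. Without Acly and Acss2, whose product feeds both branches, it differed by less than 0.1, and over all 62 libraries it was 0.61. Both scores were above 0 in 20 cells and below 0 in 17, while 5 cells were above 0 for sterol only and 8 for fatty acid only. The sterol score ran from -1.36 to 0.93 without a break, its largest gap between neighbouring cells being 0.26. At the low end, library 54 held 310.0 CPM of Fdps, 0.844 of Idi1 and 0 of Hmgcs1. At the high end, library 2 held 2003 CPM of Fdps, 1262 of Idi1 and 438 of Hmgcs1. Libraries 5 and 12 were low for sterol but high for fatty acid enzymes, with scores of -0.72 and 0.52 in library 5 and -0.29 and 0.71 in library 12. Library 58 held the lowest fatty acid score, -1.74.

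**Figure D5:**
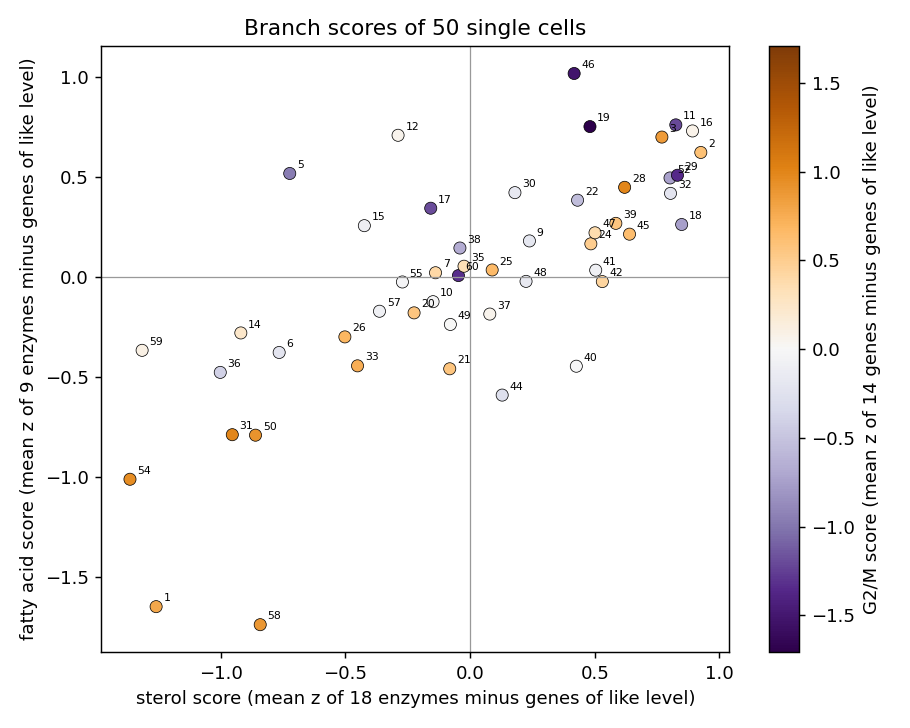
Sterol score (x axis) against fatty acid score (y axis) for 50 cells labelled by library number, coloured by the score of 14 G2 and mitosis genes. Cells lie along the diagonal (r = 0.72), and high G2/M scores occur at the lower left (libraries 1, 31, 50, 54 and 58) and at the upper right (libraries 3 and 28).

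Depth and cell cycle moved with the scores to different degrees. The number of detected genes had r = 0.13 with the sterol score and -0.08 with the fatty acid score, and log2 gene counts had 0.33 and 0.29. The S phase score had r = 0.07 and -0.04. The G2/M score, from 14 genes such as Top2a, Cdk1 and Ccnb1, had r = -0.52 with the fatty acid score and -0.29 with the sterol score. The former was -0.48 without libraries 1 and 58 and -0.54 within blocks. With plain mean z scores, which do not subtract genes of like level, both came nearer to 0, at -0.29 and -0.10. By gene, 8 of 9 fatty acid enzymes and 13 of 18 sterol enzymes had a negative r with the G2/M score, as did 4247 of the 12012 tested genes. Scd2 at -0.38 and Acly at -0.37 were lowest in the first branch, and Acat2 at -0.38 and Cyp51 at -0.36 in the second. The median over all tested genes was 0.06. With S phase and G2/M scores regressed out of both, the r between the branches differed from 0.72 by less than 0.1. Summed fibroblast markers, at most 7.03 CPM with Col1a2, Pdgfrb, Dcn and Lum at 0, had r = -0.31 and -0.34 with the sterol and fatty acid scores.

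Of 51 other genes of lipid metabolism listed for comparison, 46 were tested, and their median r with the sterol score was 0.04. An r of 0.5 or more with that score was found for 3 of them, and for 0 with the fatty acid score. Among them were 0610007P14Rik (Erg28, which tethers sterol enzymes in the membrane) at 0.64 and Slc25a1, the mitochondrial citrate exporter, at 0.51. Slc25a1 ran from 0 through a median of 324 to 791 CPM. Its r was 0.40 without libraries 54 and 59, below the mark, and 0.53 within blocks. Lpin1, a phosphatidate phosphatase, had 0.48. At the other end, Cpt1a, which brings fatty acids into mitochondria for oxidation, had -0.44. Its r was -0.40 without libraries 54 and 59 and -0.31 within blocks. The other oxidation genes of the list did not share 1 direction, with Hadha at -0.30, Acadl at 0.02 and Acadm at 0.07.

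The 10 genes outside the set with the highest r with the sterol score, among genes above 0 in at least 25 cells, included 0610007P14Rik. Among the others were Tpd52l1 at 0.66, Tmem158, Cyb5b, Aldoc, Pcyt2, Tcf25, Reep6 and Tecr, down to 0.57. Cyb5b encodes a cytochrome b5, Pcyt2 an enzyme of phosphatidylethanolamine synthesis, and Tecr the reductase that completes fatty acid elongation. For the fatty acid score the 10 were 2310009A05Rik at 0.59, Tmem254b, Tcf25, Ptrh2, Igsf9, Marcks, Txndc5, Rpsa, Poldip2 and Me2, down to 0.47. Tcf25 was the gene in both lists.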

How the data were processed

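Single-cell RNA-seq libraries of 62 cells were used, all from 1 culture. The authors deposited 1 estimated count per gene and library. The submitters' processing notes name kallisto and build mm9. Its version, the annotation and how transcripts were joined into genes were not given in the sources used here. The table held 19112 gene rows and 65 spike-in rows. Of the symbols, 17942 matched as given, 1092 after restoring characters altered by table software, and 78 stayed unmatched.

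CPM were formed from unrounded counts over the total of gene rows and taken as log2(CPM + 1). Genes above 0 in at least 10 of the 50 libraries were tested (12012 genes). Variability was how far a gene's squared coefficient of variation, in log2, lay from a lowess curve (fraction 0.3). Scores subtracted genes of the same 10 expression bins. Counts were called not whole beyond 0.01 of an integer. Transcript lengths were those of the longest principal transcript in GENCODE M21, a later build, and covered 96.4% of gene rows. Label numbers were split into blocks of 12. No count model was fitted, no doublet caller was run, and no test was made because there was 1 culture. Genes named outside the set were other pathway genes with r of at least 0.5 with a score and the 10 genes most like each score. Some of these are not reported here. Lpin1, Cpt1a and Hadha, and the promoters other than that of Hmgcs1, were picked with their values in view. The members and lists were chosen with earlier results of these data known. The computations were tested on simulated data. Python 3.11.15, numpy 2.4.6, pandas 2.3.3, scipy 1.17.1, statsmodels 0.14.6 and matplotlib 3.10.9 were used.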

Additional observations from a re-analysis of the deposited data

Results flagged for a closer look

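The 12 libraries in which spike-ins took 22.3% to 97.2% of counts were used above only where all 62 libraries are named, and they held counts of the set. Of 372 values (31 genes in 12 libraries), 129 were above 0, or 34.7%. Library 43, in which 9041 genes were detected and spike-ins took 71.1%, had all 31 members above 0, with Fdps at 506 CPM, Msmo1 at 337 and Scd2 at 413. Its sterol enzymes took 0.223% of gene counts and its fatty acid enzymes 0.0710%. The other 11 had between 0 and 23 members above 0, with a median of 8. Scd2 was above 0 in 10 of the 12 libraries, Scd1 and Idi1 in 9, and Fdps in 3.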

How the results depend on the processing

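The 14 summary values of the report were recomputed under 17 other settings, and 112 of 130 recomputed values stayed close (counts within 1.5 times, r within 0.1). None changed sign. With all 62 libraries, sterol enzymes with variability 2-fold above the trend numbered 2 and fatty acid enzymes 0. The median pairwise r was then 0.68 within sterol enzymes, 0.43 within fatty acid enzymes and 0.54 between them. Counts at r of 0.5 or more fell to 3 sterol and 1 fatty acid enzymes with the sterol score, and to 0 and 0 with the fatty acid score. The r between the scores was 0.61, and that of the fatty acid and G2/M scores was -0.36. The cause was not tested. With plain mean z, r with the G2/M score was -0.10 for sterol and -0.29 for fatty acid scores, and with detected genes regressed out it was -0.39 for sterol. At a mark of 0.4, 6 fatty acid enzymes followed the sterol score. Shares of all tested genes were read in the 50 libraries at the main marks, not under these other settings. With enzymes of whole-number counts only, chosen after seeing the data as were the G2/M settings and the addition of library 43, 1 fatty acid enzyme followed the sterol score, and 2 sterol and 0 fatty acid enzymes followed the fatty acid score, out of 11 and 5. The r between the scores ran from 0.61 to 0.76 over 15 settings. Of 360 recomputed r values of single members with the sterol score, 333 moved by less than 0.1. No paired analysis was possible because all libraries came from 1 group. Genes with few counts, such as Acaca and Acss2, limit what r can show.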
